A study of Mus musculus with 6 samples.

Results

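Haem, the iron-bearing ring of haemoglobin, catalase and the cytochromes, was followed through 10 genes that make it, move it, break it down or sense it. They are Hmox1, Hmox2, Blvra, Blvrb, Slc48a1, Flvcr1, Flvcr2, Bach1, Alas1 and Fech, chosen by name as genes of haem synthesis, transport and breakdown, by a rule that used no measured value, though with earlier results of these data known. All 10 had a row among the 26096 genes of the authors' table, 8 under these symbols and 2, Flvcr1 and Flvcr2, by gene ID under the older symbols Mfsd7b and Mfsd7c. The samples were microglia (brain-resident macrophages) of the mouse, labelled wild type in both groups. In 3 samples the cells received FeM CM, medium in which bone marrow-derived macrophages had undergone ferroptosis, an iron-dependent death driven by lipid peroxidation. In the other 3 samples they received C CM, the medium of normal bone marrow-derived macrophages. The origin of the microglia, their age, the inducer of ferroptosis and the length of exposure were not given in the sources used here. No label states that a group's 3 samples were separate cultures, and p-values then reflect only how far these samples spread, which may be technical variation.

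Haem is built along a chain of enzymes that starts and ends in mitochondria. ALAS1 makes the first precursor and sets the pace outside red cells, and ferrochelatase, the product of Fech, inserts iron in the last step. Haem oxygenases, HMOX1 (inducible) and HMOX2 (constitutive), open the ring and release iron, carbon monoxide and biliverdin, which biliverdin reductases turn into bilirubin. SLC48A1, also called HRG1, carries haem out of the compartments in which macrophages digest red cells, and FLVCR1 and FLVCR2 are membrane transporters described as carrying haem and choline. BACH1 is a haem-binding repressor that occupies the enhancers of Hmox1 and related genes until haem displaces it. Macrophages, microglia included, are known for the strong induction of HMOX1 after they take up haem or meet oxidants.

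Promoter sequences of 7 of the 10 genes were taken from the RefSeq table of GRCm38.p6, each reaching 250 bases before and 50 after an annotated transcription start. Hmox1 and Slc48a1, which also changed in the comparison, had no promoter sequence to search, and that of Fech is not reported here. The promoters of Blvrb, Blvra, Alas1 and Bach1 are shown because these genes changed too, Blvra in the direction opposite to the other 3. The windows are chr7:27447728-27448027 (plus strand), chr2:127070407-127070706 (plus strand), chr9:106247905-106248204 (minus strand) and chr16:87698704-87699003 (plus strand). Capitals mark motif matches, and each sequence runs 5′ to 3′ along its gene.
Blvrb: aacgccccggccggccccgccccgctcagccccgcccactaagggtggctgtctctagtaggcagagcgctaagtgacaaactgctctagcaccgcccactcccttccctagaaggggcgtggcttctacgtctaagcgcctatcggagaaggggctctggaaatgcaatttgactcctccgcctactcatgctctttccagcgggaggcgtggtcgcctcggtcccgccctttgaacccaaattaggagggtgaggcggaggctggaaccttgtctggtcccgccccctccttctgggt
Blvra: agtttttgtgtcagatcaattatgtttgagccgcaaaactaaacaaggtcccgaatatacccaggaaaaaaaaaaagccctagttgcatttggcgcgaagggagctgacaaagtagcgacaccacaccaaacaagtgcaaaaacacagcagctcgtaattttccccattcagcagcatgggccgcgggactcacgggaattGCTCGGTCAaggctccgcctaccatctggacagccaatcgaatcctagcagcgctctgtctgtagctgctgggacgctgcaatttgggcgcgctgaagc
Alas1: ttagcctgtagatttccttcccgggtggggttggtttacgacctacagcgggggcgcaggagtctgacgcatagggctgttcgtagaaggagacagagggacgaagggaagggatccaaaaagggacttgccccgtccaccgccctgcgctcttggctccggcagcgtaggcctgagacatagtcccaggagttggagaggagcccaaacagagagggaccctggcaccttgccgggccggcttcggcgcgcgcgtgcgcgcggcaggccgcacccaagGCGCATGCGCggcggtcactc
Bach1: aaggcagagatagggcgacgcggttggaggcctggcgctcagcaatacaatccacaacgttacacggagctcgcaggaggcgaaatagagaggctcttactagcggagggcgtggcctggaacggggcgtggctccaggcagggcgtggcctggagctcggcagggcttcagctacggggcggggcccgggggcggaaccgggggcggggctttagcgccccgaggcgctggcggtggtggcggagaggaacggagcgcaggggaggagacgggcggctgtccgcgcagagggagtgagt

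Both strands were searched for 5 motifs. The core of the antioxidant response element (TGACNNNGC), the sequence class that NRF2 and BACH1 with their small MAF partners bind, stands in 12.4% of all 32851 promoters of this length in the table. The capitals in Blvra are such a match, on the opposite strand, 49 bases before the start. Flvcr1 also held a match, 151 bases before its start. The capitals in Alas1 are 2 overlapping matches, 1 on each strand, to the core bound by nuclear respiratory factor 1 (GCGCATGC, 2.71% of promoters). They lie 29 and 31 bases after the transcription start used for the window shown. Alas1 has another annotated start, and the same matches lie 195 and 193 bases before that one. Flvcr2 held an E-box (CACGTG, 7.15% of promoters) 20 bases before its start. No promoter window shown held the AP-1 site (TGANTCA, 7.81% of promoters) or the ATF4 and CEBP composite site (TGATGNAA, 3.97%). None of the 5 motifs stood in the windows of Blvrb, Bach1 or Hmox2. The starts of the Hmox2 windows lay 15252 bases or more from the 5′ end of the gene in GENCODE M21. A promoter at that end of Hmox2 was not searched. These matches describe letters in short windows and carry no measurement of binding, and enhancers farther from the start were not searched.

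Values are normalized counts, worked out by undoing the log2 of the deposited values. Each library held 39624311 to 41953603 reads in FeM CM and 43419446 to 50557794 reads in C CM, and no library stood apart from the other libraries of its group (log2 profiles correlated at 0.980 or more within groups and at 0.962 to 0.967 between them). Of 12 markers of microglia and macrophages, 3 rose (Adgre1, Fcer1g and Tyrobp) and 5 fell (Trem2, Csf1r, Ctss and Cd68 among them) of 10 tested. Aif1 did not pass, but passed as lower in 4 of the 14 alternatives, with quantile normalization, with limma without trend or robust fitting, with limma-voom and without FeM CM replicate 3 (limma adjusted p between 0.0234 and 0.0484). The summed level of the 12 was 140957 to 145326 in FeM CM and 168008 to 172078 in C CM. P2ry12 and Tmem119, which set brain microglia apart from other macrophages, had only 3 and 21 reads over all 6 libraries. Red cell genes were near 0. Hba-a1 had 15 reads, Hba-a2 had 12 and Alas2, the red cell form of the first enzyme, had 7 over the 6 libraries. The summed level of the 4 red cell markers with a row was 14.9 to 29.7 in FeM CM and 19.3 to 27.4 in C CM. Summed levels of the other marker lists were 1159 to 1219 in FeM CM and 880 to 982 in C CM for astrocytes, and 4285 to 4508 in FeM CM and 6835 to 7351 in C CM for the oligodendrocyte lineage. Each of these 2 sums was carried mostly by 1 gene, Gja1 (1084 in FeM CM and 769 in C CM) and Mbp (4101 in FeM CM and 6608 in C CM). Cldn11 was lower in FeM CM, as Mbp was (120 in FeM CM and 283 in C CM, log2 change -1.24, limma adjusted p = 0.000335). Mag and Aldh1l1 on the same lists went the opposite way to these sums, with Mag higher in FeM CM (log2 change 1.01) and Aldh1l1 lower (-0.64). The Aldh1l1 call was lost without FeM CM replicate 2 or 3 or C CM replicate 1 or 2 (limma adjusted p between 0.0685 and 0.108). Sums were 55.3 to 69.6 in FeM CM and 5.88 to 16.6 in C CM for neurons, and 405 to 459 in FeM CM and 309 to 328 in C CM for endothelium and fibroblasts. In FeM CM the neuron sum was mostly Tubb3 (61.3, against 4.99 in C CM), while Map2, not tested, averaged 1.02 in FeM CM and 5.60 in C CM. Pecam1 (299 in FeM CM and 209 in C CM) made up most of the last sum. Dcn on that list also rose, and Cdh5 did not pass (71.8 in FeM CM and 97.2 in C CM). The part that other cell types have in the results was not tested.

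Hmox1 had the largest log2 change of the 9 members tested, followed by Slc48a1 and Blvrb. Hmox1, Slc48a1, Blvrb, Bach1 and Alas1 were higher in FeM CM, Blvra was lower, and Hmox2, Flvcr1 and Fech did not pass the test (limma, adjusted p threshold 0.05). Thus 5 of the 9 members tested rose and 1 fell, where 19.7% of all 15597 genes tested rose, 22.8% fell and 42.5% passed in either direction. The same shares over all genes belong beside each list count below. The median log2 change was 0.46 over these 9 members and -0.0050 over all genes tested. All 9 exceeded the low-value minimum of 10 normalized counts in every library of both groups, and Flvcr2 was under it and not tested. Each of the 6 calls held in all 14 alternative settings. In bulk RNA, fewer cells of a type and less RNA per cell cannot be told apart, which applies to every level below.

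**Figure D1:**
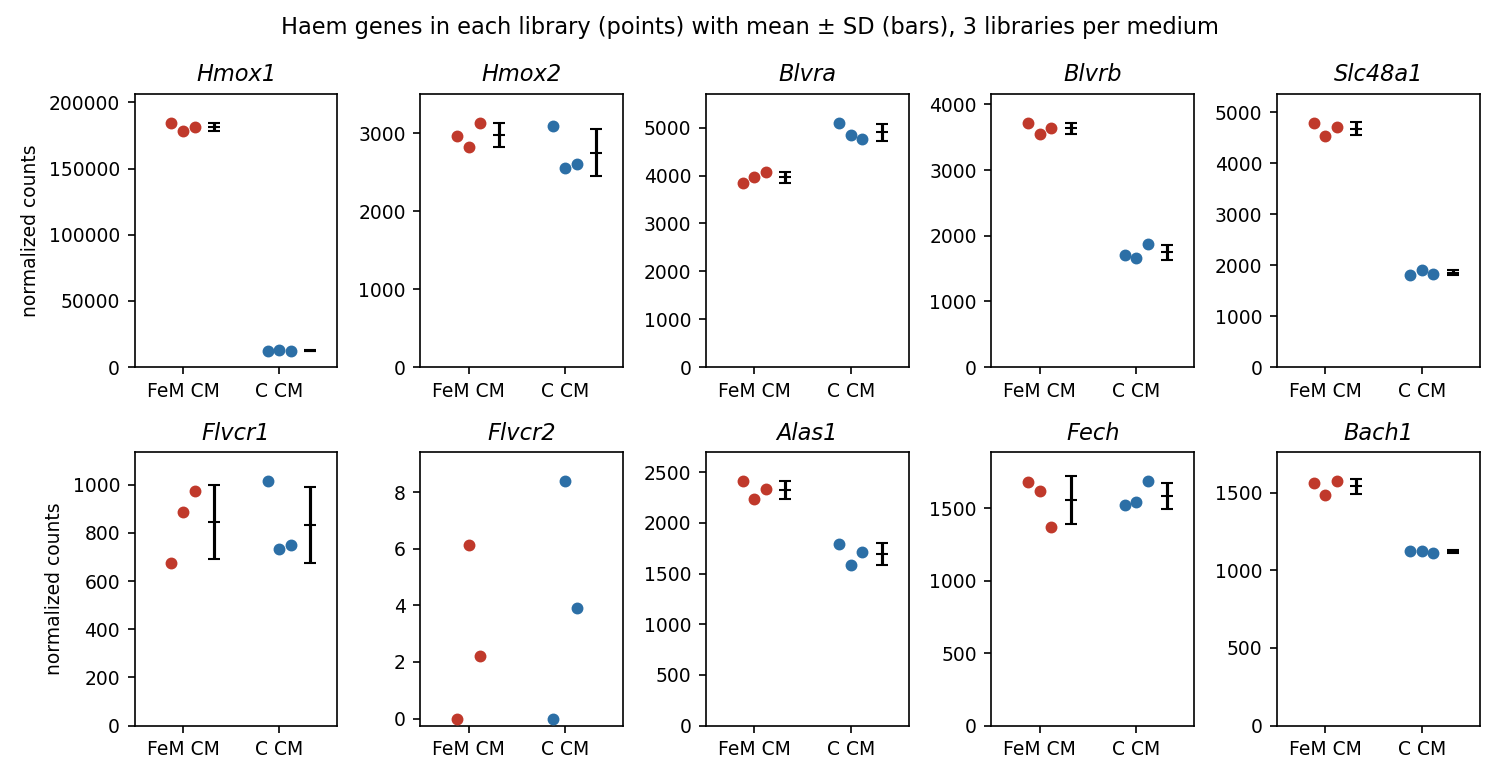
Normalized counts (vertical axes, linear, a separate scale per gene) of the 10 haem genes in the 3 FeM CM libraries (red) and the 3 C CM libraries (blue), with mean ± SD beside the points (no bar for Flvcr2). The groups do not overlap for Hmox1, Blvra, Blvrb, Slc48a1, Alas1 and Bach1, and overlap for Hmox2, Flvcr1, Flvcr2 and Fech. The share of all genes whose groups do not overlap is not given here, so this describes the points only.

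Hmox1 (ENSMUSG00000005413), the inducible haem oxygenase, had 184607, 178252 and 181451 normalized counts in FeM CM replicates 1, 2 and 3, and 12553, 12598 and 12311 in C CM replicates 1, 2 and 3. Every FeM CM library was far above every C CM library, and the 3 libraries of each group lay close together. The means were 181437 ± 3178 in FeM CM and 12488 ± 154 in C CM (SD, n = 3 each), a 14.5-fold rise. The log2 change was 3.86 (SE 0.02, 95% interval 3.80 to 3.92), with a limma adjusted p = 1.00e-11. It had the smallest p-value of the 15597 genes tested and the 21st largest rise. Per kilobase of exon it ranked 16th of 15583 genes in FeM CM and 292nd in C CM. Its transcripts took 0.420% ± 0.0094 of all reads in FeM CM and 0.0293% ± 0.00051 in C CM. In FPKM, the authors' length- and depth-scaled unit, Hmox1 averaged 2128 ± 40.7 in FeM CM and 148 ± 2.54 in C CM.

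Hmox2 (ENSMUSG00000004070), the constitutive haem oxygenase, had 2970, 2822 and 3135 normalized counts in FeM CM, against 3095, 2560 and 2609 in C CM. The groups overlapped because C CM replicate 1 was above 2 of the FeM CM libraries. The means were 2976 ± 157 in FeM CM and 2755 ± 296 in C CM, and the log2 change of 0.12 (SE 0.08, interval -0.06 to 0.29) did not pass (limma adjusted p = 0.279). Without C CM replicate 1 the change was 0.20 and passed (limma adjusted p = 0.0318). Hmox2 shares 892 exon bases on the opposite strand with Cdip1, and reads of the shared bases cannot be told apart, because the strand setting of the counting was not given in the sources used here. Cdip1 itself averaged 1009 ± 54.1 in FeM CM and 968 ± 184 in C CM.

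The 2 oxygenases were also set against each other within each library, where library scaling cancels. The log2 ratio of Hmox1 to Hmox2 normalized counts was 5.96, 5.98 and 5.85 in FeM CM, against 2.02, 2.30 and 2.24 in C CM. The ratio was 13.4-fold higher in FeM CM, every FeM CM library being above every C CM library, and the two-sided exact permutation p = 0.1 is the smallest that 3 against 3 samples allow.

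Blvra (ENSMUSG00000001999), the reductase of the biliverdin isomer that haem oxygenases produce, had 3843, 3971 and 4066 normalized counts in FeM CM, against 5101, 4839 and 4773 in C CM. All FeM CM libraries were below all C CM libraries. The means were 3960 ± 112 in FeM CM and 4905 ± 174 in C CM, 0.808 of the C CM level, with a log2 change of -0.31 (SE 0.04, interval -0.41 to -0.21, limma adjusted p = 0.000446).

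Blvrb (ENSMUSG00000040466), which reduces flavins and other biliverdin isomers, moved the other way. It had 3720, 3552 and 3635 normalized counts in FeM CM, against 1712, 1660 and 1869 in C CM, with no overlap. The means were 3635 ± 84.0 in FeM CM and 1747 ± 109 in C CM, a 2.08-fold rise (log2 change 1.06, SE 0.06, interval 0.93 to 1.19, limma adjusted p = 1.18e-06). The authors' FPKM averaged 26.9 ± 0.646 in FeM CM and 13.1 ± 0.751 in C CM.

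Within a library, the log2 ratio of Blvrb to Blvra counts was -0.05, -0.16 and -0.16 in FeM CM, against -1.57, -1.54 and -1.35 in C CM. The ratio was 2.58-fold higher in FeM CM, with no overlap between the groups (two-sided exact permutation p = 0.1, the smallest possible). Por, the reductase that supplies haem oxygenases with electrons, averaged 15730 ± 377 in FeM CM and 10812 ± 393 in C CM (log2 change 0.54, SE 0.04, limma adjusted p = 5.52e-06). The 5 genes of haem breakdown and electron supply therefore comprised 3 that rose, 1 that fell and 1 that did not pass, with a median log2 change of 0.54. All but Por are members already counted above, and the median is the value of Por itself.

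**Figure D2:**
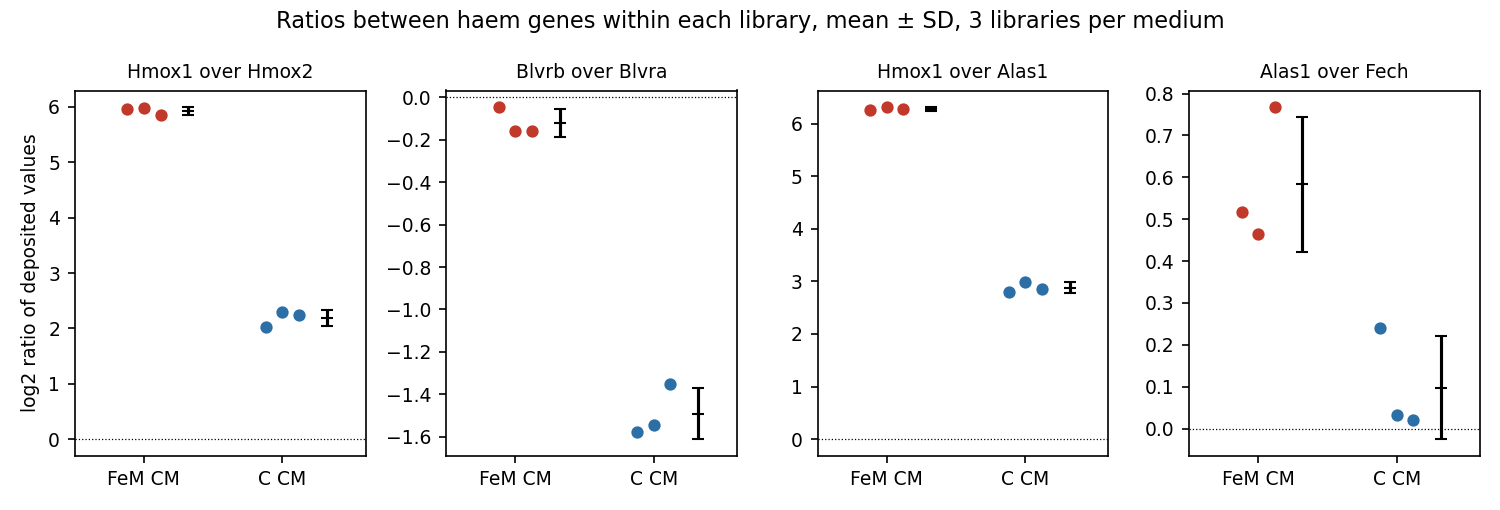
Log2 ratios of normalized counts of 2 genes within each library (vertical axes, a separate scale per panel), for FeM CM libraries (red) and C CM libraries (blue), with mean ± SD beside the points. In all 4 pairs drawn, Hmox1 to Hmox2, Blvrb to Blvra, Hmox1 to Alas1 and Alas1 to Fech, every FeM CM library lies above every C CM library. The pair Flvcr1 to Flvcr2, whose groups overlapped, is not drawn.

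Among the transporters, Slc48a1 (ENSMUSG00000081534), the exporter of haem from digestive compartments into the cytosol, rose and the FLVCR genes did not pass or could not be tested. Slc48a1 had 4790, 4533 and 4714 normalized counts in FeM CM, against 1813, 1907 and 1829 in C CM. The groups were widely separated, and each was narrow. The means were 4679 ± 132 in FeM CM and 1850 ± 50.7 in C CM, a 2.53-fold rise (log2 change 1.34, SE 0.04, interval 1.24 to 1.44, limma adjusted p = 1.03e-07). The authors' FPKM averaged 34.8 ± 0.937 in FeM CM and 14.0 ± 0.400 in C CM.

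Flvcr1 (ENSMUSG00000066595) had 673, 888 and 972 normalized counts in FeM CM, against 1014, 732 and 749 in C CM. The groups overlapped fully, with the lowest library in FeM CM and the highest in C CM. The log2 change was 0.02 (SE 0.18, interval -0.41 to 0.45, limma adjusted p = 0.936). It was the least precisely measured of the 9 members, and a difference within that interval was not detectable with these samples. Flvcr1 shares 809 exon bases with the antisense gene A230020J21Rik, which had 430 reads over the 6 libraries.

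Flvcr2 (ENSMUSG00000034258) had 0, 6 and 2 reads in FeM CM, against 0, 10 and 4 in C CM. With 22 reads in all it was near the limit of detection in both groups, and no fold change is given. With 1 added to each value, the log2 ratio of Flvcr1 to Flvcr2 was 9.40, 6.96 and 8.24 in FeM CM, against 9.99, 6.28 and 7.25 in C CM. In replicate 1 of each group Flvcr2 had 0 reads, so 9.40 and 9.99 reflect Flvcr1 and the added 1 only. The other ratios rest on 10 or fewer reads of Flvcr2, and library scaling does not cancel at such levels. The groups overlapped (two-sided exact permutation p = 0.8), and no measured ratio can be read from them.

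Of the 5 other genes of haem uptake, trafficking and export that were tested, 2 rose, 1 fell and 2 did not pass. Lrp1, the endocytic receptor that takes up haem bound to haemopexin, averaged 37049 ± 1697 in FeM CM and 58153 ± 2014 in C CM (log2 change -0.65, SE 0.04, limma adjusted p = 2.81e-06). Slc46a1, a proton-coupled folate transporter that also carries haem, rose by 0.52 on the log2 scale (SE 0.13, limma adjusted p = 0.0121). Abcg2, an efflux pump for porphyrins, rose by 0.53 (SE 0.15, limma adjusted p = 0.0192), but did not pass without FeM CM replicate 2 (limma adjusted p = 0.067) or C CM replicate 3 (limma adjusted p = 0.06). The haem-binding proteins Pgrmc1 and Pgrmc2 had log2 differences of 0.09 and -0.09 and did not pass (limma adjusted p = 0.156 and 0.241), although Pgrmc1 passed at 0.14 under quantile normalization (limma adjusted p = 0.0279) and upper-quartile scaling (limma adjusted p = 0.027). The plasma scavengers Hpx and Hp had 9 and 6 reads over the 6 libraries and were not tested.

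Of the synthesis members, the first enzyme rose modestly and the last did not pass. Alas1 (ENSMUSG00000032786), the rate-setting enzyme, had 2411, 2232 and 2337 normalized counts in FeM CM, against 1796, 1581 and 1709 in C CM. The lowest FeM CM library was above the highest C CM library. The means were 2326 ± 90.0 in FeM CM and 1696 ± 108 in C CM, a 1.37-fold rise (log2 change 0.46, SE 0.06, interval 0.32 to 0.60, limma adjusted p = 0.000384). The Hmox1 to Alas1 ratio within a library was 10.6-fold higher in FeM CM (log2 ratios 6.26, 6.32 and 6.28 in FeM CM, against 2.80, 2.99 and 2.85 in C CM, two-sided exact permutation p = 0.1, the smallest possible). Alas1 shares 465 exon bases with the antisense gene 4930500F10Rik, which had 49 reads over the 6 libraries.

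Fech (ENSMUSG00000024588), encoding the enzyme that inserts iron, had 1683, 1617 and 1372 normalized counts in FeM CM, against 1521, 1545 and 1685 in C CM. The groups overlapped, and FeM CM replicate 3 was the lowest of the 6 libraries. The means were 1557 ± 164 in FeM CM and 1584 ± 88.5 in C CM (log2 change -0.03, SE 0.08, interval -0.22 to 0.17, limma adjusted p = 0.824), and the small difference changed sign under other scalings, to 0.011 with quantile normalization and 0.024 with upper-quartile scaling. The log2 ratio of Alas1 to Fech was 0.52, 0.46 and 0.77 in FeM CM, against 0.24, 0.03 and 0.02 in C CM, a 1.40-fold difference (two-sided exact permutation p = 0.1, the smallest possible).

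Among the 6 intermediate enzymes of synthesis, 1 rose, 1 fell and 4 did not pass, with a median log2 change of -0.14. Over all genes tested, 19.7% rose and 22.8% fell. Alad, the second enzyme of the chain, averaged 1129 ± 122 in FeM CM and 1658 ± 50.5 in C CM (log2 change -0.56, SE 0.08, limma adjusted p = 0.000579). Cpox, which acts in the mitochondrial intermembrane space, rose by 0.21 on the log2 scale (SE 0.06, limma adjusted p = 0.0166). The Cpox call was lost without C CM replicate 1 (limma adjusted p = 0.0541), FeM CM replicate 2 (0.0523) or FeM CM replicate 3 (0.0538). Uros, Urod and Ppox had log2 differences of 0.29, -0.11 and -0.18 and did not pass.

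Of 8 mitochondrial transport and assembly genes for synthesis, 2 rose, 2 fell and 4 (Slc25a38, Slc25a28, Abcb10 and Clpx, between -0.24 and 0.15) did not pass. The shares over all genes tested were 19.7% higher and 22.8% lower. Slc25a28 passed without FeM CM replicate 3 (0.23, limma adjusted p = 0.0392) and Clpx without C CM replicate 3 (0.17, limma adjusted p = 0.0446). Abcb10 passed as lower with limma without trend or robust fitting (-0.24, limma adjusted p = 0.0467). Slc25a37, mitoferrin 1, the iron importer of mitochondria, averaged 7188 ± 197 in FeM CM and 4093 ± 142 in C CM (log2 change 0.81, SE 0.04, limma adjusted p = 9.27e-07). Abcb6, a porphyrin transporter, averaged 1724 ± 72.5 in FeM CM and 892 ± 109 in C CM (log2 change 0.96, SE 0.09, limma adjusted p = 5.22e-05). Tmem14c, which moves a porphyrin precursor into the mitochondrial matrix, fell by 0.24 (SE 0.06, limma adjusted p = 0.0107).

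**Figure D3:**
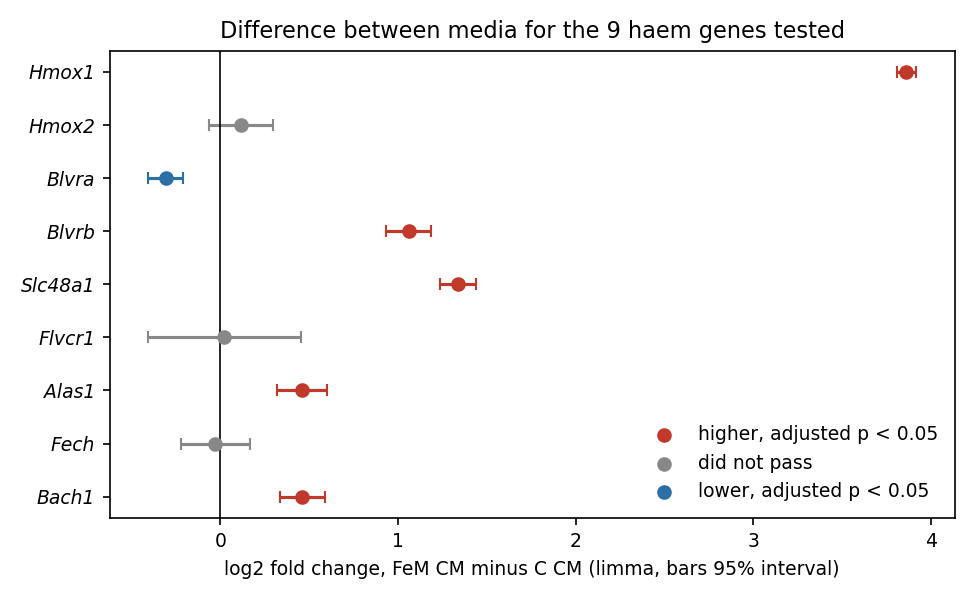
Log2 fold change (FeM CM over C CM, horizontal axis) of the 9 members tested, with 95% intervals from limma on 3 libraries per group. The interval of Hmox1 lies far to the right at 3.80 to 3.92, that of Blvra is the only interval wholly below 0, and those of Hmox2, Flvcr1 and Fech cross 0.

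Bach1 (ENSMUSG00000025612), the haem-sensing repressor of Hmox1, had 1562, 1485 and 1573 normalized counts in FeM CM, against 1122, 1125 and 1108 in C CM. The groups did not overlap, and the C CM libraries were nearly equal. The means were 1540 ± 48.1 in FeM CM and 1119 ± 9.14 in C CM, a 1.38-fold rise (log2 change 0.46, SE 0.06, interval 0.33 to 0.59, limma adjusted p = 0.000189). The transcript of the repressor and that of its target Hmox1 thus rose in the same samples. Transcript levels do not measure BACH1 protein or its occupancy of DNA.

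Of the 5 partners and antagonists of BACH1 that were tested, 3 rose, 1 fell and 1 did not pass. Maff, a small MAF protein with which BACH1 or NRF2 pairs, averaged 1092 ± 5.30 in FeM CM and 330 ± 27.9 in C CM (log2 change 1.73, SE 0.08, limma adjusted p = 8.06e-07). Mafg, another small MAF, rose by 0.69 (SE 0.05, limma adjusted p = 1.24e-05), and Mafk did not pass, at 0.01 (limma adjusted p = 0.87). Nfe2l2, the gene of NRF2, rose by 0.16 (SE 0.04, limma adjusted p = 0.0136), a call lost without C CM replicate 3 (limma adjusted p = 0.0525) and with limma without trend or robust fitting (0.0559). Keap1, the adaptor that marks NRF2 for degradation, averaged 2956 ± 175 in FeM CM and 4624 ± 256 in C CM (log2 change -0.65, SE 0.06, limma adjusted p = 3.66e-05). Bach2, the lymphoid relative of Bach1, had 5 reads over the 6 libraries.

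Of 11 other genes known as targets of BACH1 and NRF2, 9 rose, none fell and 2 (Nqo1 and Fth1) did not pass, with a median log2 change of 0.75. The median is the value of Fth1 itself. Fth1, Ftl1 and Slc40a1 of this list are counted again among the iron genes below, where their values and limits stand. Slc7a11, the cystine importer, rose by 2.75 on the log2 scale (SE 0.04, limma adjusted p = 2.93e-09). Txnrd1, thioredoxin reductase, rose by 0.69 (SE 0.03, limma adjusted p = 3.04e-07), and Prdx1, a peroxide-reducing enzyme, by 0.64 (SE 0.03, limma adjusted p = 1.14e-06). Among the weaker calls, that of Srxn1 (log2 change 1.96, limma adjusted p = 0.0296) was lost in 5 of the 14 alternatives. Srxn1 did not pass with the replicate block or without FeM CM replicate 1, 2 or 3 or C CM replicate 2 (limma adjusted p between 0.0585 and 0.0933). The call of Gclm (1.31, limma adjusted p = 0.0137) was lost without C CM replicate 2 (limma adjusted p = 0.0573) or 3 (0.0544). That of Gclc (0.15, limma adjusted p = 0.0188) was lost without FeM CM replicate 2 (limma adjusted p = 0.0573) or 3 (0.0584) or C CM replicate 3 (0.0652), and with limma without trend or robust fitting (0.0525). Nqo1, the quinone reductase often read as a sign of NRF2 activity, had a log2 difference of -0.18 and did not pass (limma adjusted p = 0.583).

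Iron is the product of haem breakdown that a cell must store or export, and of 5 genes that handle it 2 rose, 2 fell and 1 did not pass. Slc40a1, ferroportin, the iron exporter, averaged 2348 ± 105 in FeM CM and 563 ± 69.6 in C CM (log2 change 2.07, SE 0.09, limma adjusted p = 5.30e-07). Ftl1, the ferritin light chain, rose by 0.30 (SE 0.03, limma adjusted p = 5.76e-05), but its change was -0.03 and did not pass with quantile normalization (limma adjusted p = 0.753). Fth1, the ferritin heavy chain, had 253267, 248592 and 398428 normalized counts in FeM CM, against 170264, 217992 and 140861 in C CM. The Fth1 groups did not overlap, yet the spread within each was wide and the gene did not pass (log2 difference 0.75, SE 0.28, limma adjusted p = 0.0993), but passed with limma-voom (limma adjusted p = 0.0278). The iron chaperones Pcbp1 and Pcbp2 fell by 0.35 and 0.14 (limma adjusted p = 0.000295 and 0.0104), and Pcbp2 did not pass with upper-quartile scaling (limma adjusted p = 0.091) or with limma without trend or robust fitting (0.0575).

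Of 11 haem-containing proteins tested, 6 rose, 3 fell and 2 did not pass, with a median log2 change of 0.35. Ptgs2, the inducible cyclooxygenase, rose by 4.20 (SE 0.04, limma adjusted p = 7.10e-11), and Cat, catalase, by 1.32 (SE 0.04, limma adjusted p = 5.06e-08). Nos2, the inducible nitric oxide synthase, rose by 0.84 (SE 0.04, limma adjusted p = 7.27e-07), and Cybb, the cytochrome subunit of the phagocyte oxidase, by 0.42 (SE 0.03, limma adjusted p = 9.30e-06). Cyb5b, Cyp51 and Tbxas1 were lower in FeM CM by log2 changes of -0.33, -0.61 and -1.36, that of Tbxas1 not passing without C CM replicate 2 (limma adjusted p = 0.0503). The cytochrome c genes Cycs and Cyc1 had differences of 0.07 and -0.19 and did not pass, although Cyc1 passed as lower without FeM CM replicate 2 (limma adjusted p = 0.0253), without C CM replicate 2 (0.0295) or with a pseudocount of 10 (0.0478). Of 3 haem-regulated proteins, the clock repressor Nr1d2 fell by 0.94 (SE 0.13, limma adjusted p = 0.000542) and its relative Nr1d1 rose by 0.41 (SE 0.09, limma adjusted p = 0.00615). Eif2ak1, the haem-inhibited kinase of translation initiation, did not pass, at -0.02 (limma adjusted p = 0.746). Pooled over all these lists, 52 tested genes lay outside the 10 members. Of them 25 rose, 11 fell and 16 did not pass, with a median log2 change of 0.16. The pool includes targets of BACH1 and NRF2, of which 9 of 11 rose, and haem-containing proteins, of which 6 of 11 rose. Without members, 1 of 6 synthesis enzymes rose and 1 fell, and 2 of 5 genes of uptake, trafficking and export rose and 1 fell. Of 8 mitochondrial transport genes, 2 rose and 2 fell. Among all genes tested, 19.7% rose and 22.8% fell.

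**Figure D4:**
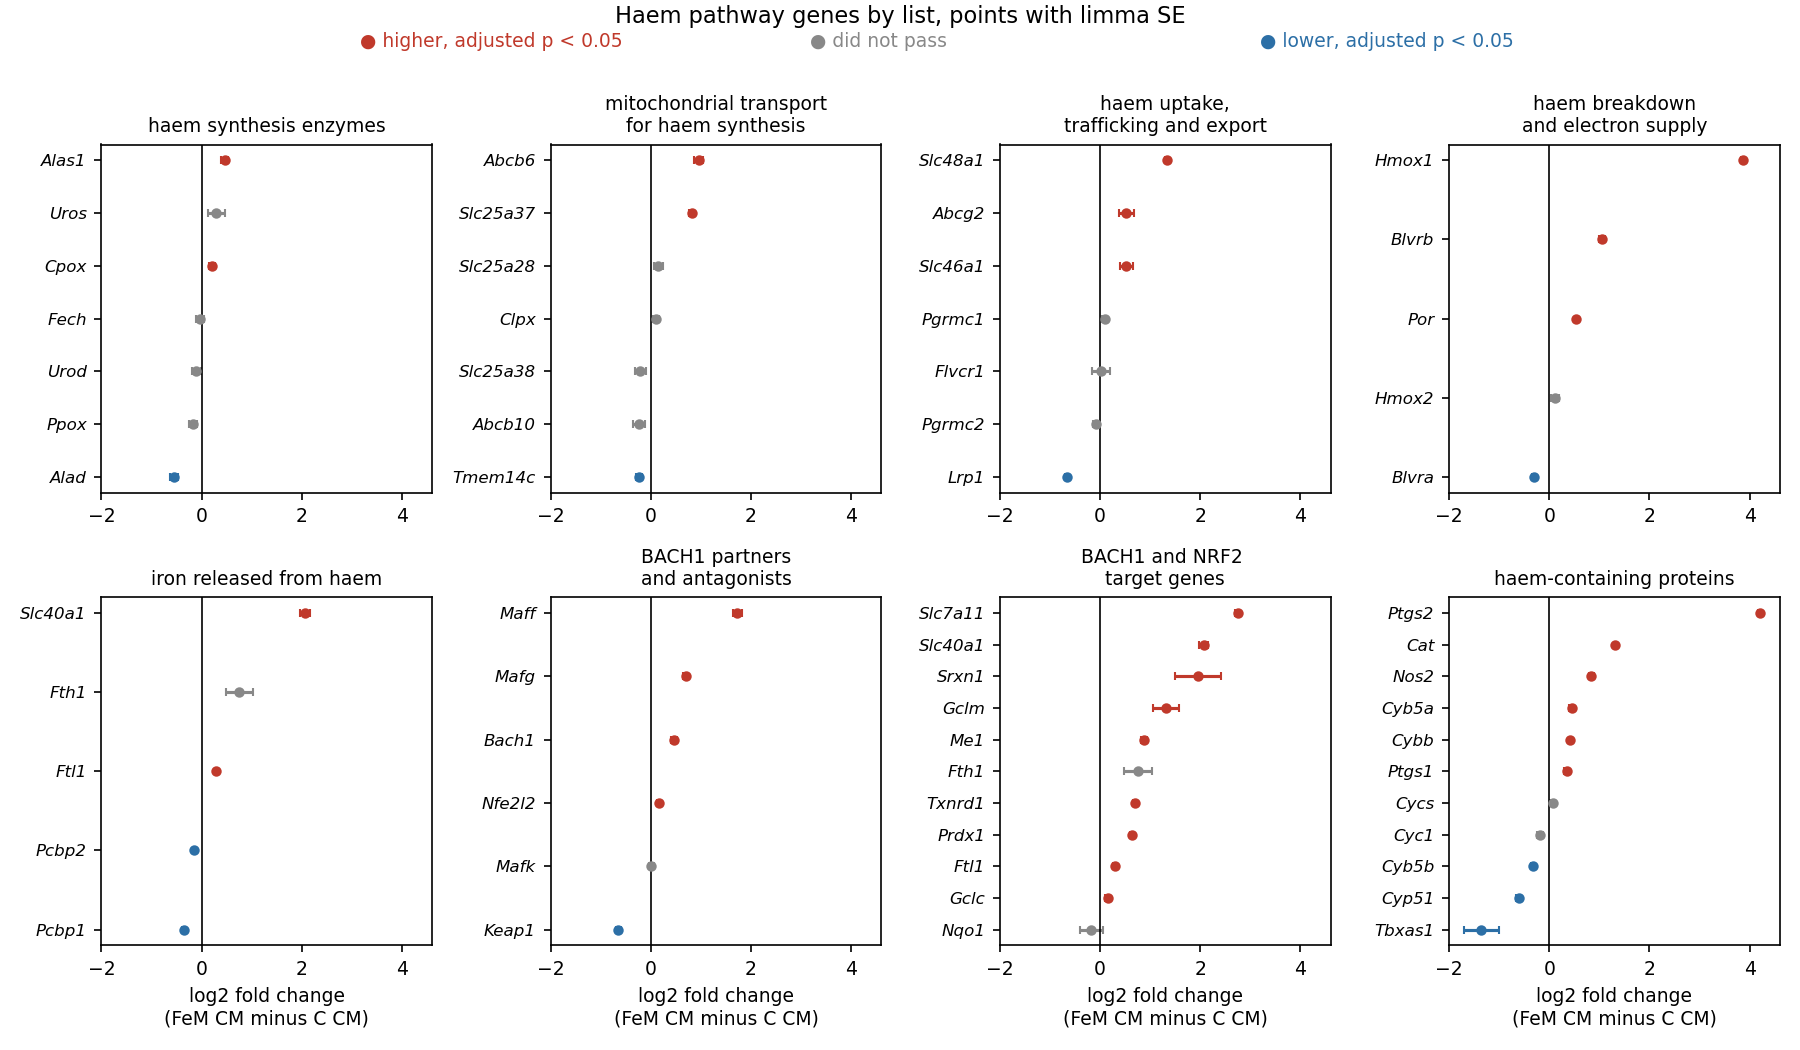
Log2 fold change (FeM CM over C CM, horizontal axes) of tested genes of 8 haem-related lists, with bars for 1 SE, coloured by whether a gene rose, fell or did not pass at a limma adjusted p of 0.05. The 3 haem-regulated proteins and a few genes not reported here are not drawn. BACH1 and NRF2 targets lie mostly to the right of 0, with Slc7a11 at 2.75 and Slc40a1 at 2.07, and the synthesis enzymes lie on both sides, with Alad at -0.56 and Alas1 at 0.46.

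Levels of different members can be compared only per length of transcript, and normalized counts per kilobase of exon were used for this. In FeM CM the order ran from Hmox1 (103619 ± 1815) through Slc48a1 (1701 ± 48.1), Blvra (1619 ± 45.7), Hmox2 (1342 ± 70.7), Blvrb (1307 ± 30.2), Alas1 (377 ± 14.6), Bach1 (249 ± 7.78) and Flvcr1 (163 ± 29.8) to Fech (113 ± 11.8), with Flvcr2 far below. In that order, the ± SD ranges of Slc48a1 and Blvra overlapped, as did those of Hmox2 and Blvrb. In C CM the order ran from Hmox1 (7132 ± 88.1) through Blvra (2005 ± 71.0), Hmox2 (1242 ± 133), Slc48a1 (672 ± 18.4), Blvrb (628 ± 39.1), Alas1 (275 ± 17.5), Bach1 (181 ± 1.48) and Flvcr1 (161 ± 30.5) to Fech (114 ± 6.39). There the ranges of Slc48a1 and Blvrb overlapped, as did those of Bach1 and Flvcr1. Exon lengths are unions over annotated transcripts of GENCODE M21, up to 13838 bases for Fech, so a gene expressed mainly as a short transcript stands too low in this order.

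The genes whose pattern over the 6 libraries lay nearest to that of Hmox1, by the Euclidean distance of log2 values centred on each gene's mean, were Mmp13, Chac1, C330022C24Rik, Urah and Ptgs2. Mmp13, a collagenase, lay at a distance of 0.30 with a log2 change of 3.72. Chac1, a glutathione-degrading enzyme, also lay at 0.30 with a change of 3.63, and Urah, an enzyme of urate breakdown, at 0.35 with 3.63. Ptgs2 lay at 0.44, with a change of 4.20. C330022C24Rik, at 0.33, rested on 45 reads in all, none of them in C CM. With 6 libraries in 2 groups, this measure mainly finds genes with a rise of similar size.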

How the data were processed

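RNA from mouse microglia was sequenced in 3 FeM CM and 3 C CM samples, as polyadenylated-RNA kit libraries, per the labels' protocols. Per the submitters' processing notes, the submitters worked with R 3.4.3, DESeq2 1.18.1, HISAT2 2.1.0 and fastp 0.17.1. Not given in the sources used here were the counting tool, its strand setting, the genome build and the annotation.

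The authors deposited log2 values for 26096 genes, each matching the log2 of 1 plus a read count over a size factor. On the linear scale, 100% of a library's values fell within 0.01 of whole multiples of 1 read, and the reads were worked out from these steps, though they may be rounded estimates. Size factors were 0.940, 0.977 and 0.903 in FeM CM and 1.02, 1.19 and 1.02 in C CM. The deposited FPKM values cover only a shorter table of 1699 genes, in which Hmox1, Slc48a1 and Blvrb stand. The p-values the authors deposited with the full table were not used in any test here.

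Differences were tested with limma 3.58.1 (R 4.3.3, two-sided, trended and robust fitting) with medium as the single term, on the deposited log2 values of the 15597 genes that reached 10 normalized counts in 3 or more libraries. P-values were adjusted over all of these genes by the Benjamini-Hochberg method, with a threshold of 0.05. Fold changes are on the log2(value + 1) scale, which understates changes of scarce genes. SE is the moderated standard error, and intervals are 95% intervals. Around the minimum, a value stands on some 10 reads of a library. The procedure was tested on simulated data with few changed genes and the same relative spread beyond sampling noise for all genes. That setting is simpler than these data, so the simulation does not bear on single calls here.

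The 10 members and the lists of other haem genes and cell type markers were chosen with earlier results of these data known. All members are named, and of each other list up to 4 genes with the smallest p-values, every gene of a count of 5 or fewer, and genes below the minimum that define the list. Where only some genes of a larger count are named, the rule of smallest p-values or a call lost in an alternative chose them. For a symbol with several gene IDs the ID with the highest mean was used. A few genes of these lists enter the counts and are not reported here by name. Cd163, Ido1, Gucy1b1, Gucy1b3 and Spic were not analysed here. Exon lengths and overlaps come from GENCODE M21 and promoters from RefSeq.

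Replicates of either group differed from each other beyond sampling noise (chi-square per degree of freedom 16.6 to 23.3). The 14 alternatives were another minimum, 2 other pseudocounts, 2 other scalings, limma without trend or robust fitting, limma-voom on the reads, a replicate block, and leaving out each library in turn.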

Additional observations from a re-analysis of the deposited data

How the results depend on the processing

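All 6 calls among the members (Hmox1, Slc48a1, Blvrb, Bach1 and Alas1 higher, Blvra lower) held in each of the 14 alternatives, with log2 changes of 3.68 to 3.91 for Hmox1 and -0.33 to -0.25 for Blvra. The counts over all genes were 3077 higher and 3552 lower. Their shift under each alternative stayed within 1.5 times, 2914 higher and 3312 lower with the replicate block, and 3657 higher and 3060 lower with upper-quartile scaling. Same-numbered replicates of the 2 groups did not deviate together (correlations 0.0086, -0.0196 and -0.0393, against -0.0547 to 0.0702 for unlike numbers). No pairing by number was thus seen, though 3 libraries per group cannot exclude it. The replicate block changed no member's call. Among the other haem genes it ended that of Srxn1 alone (log2 change 1.96, limma adjusted p = 0.0891).

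Among members that did not pass, Fech and Flvcr1 changed sign in some alternatives and Hmox2 did not. The log2 change of Fech was 0.011 with quantile normalization and 0.024 with upper-quartile scaling, and -0.087 to 0.060 when each library was left out in turn. That of Flvcr1 ranged from -0.088 to 0.18 when each library was left out in turn. That of Hmox2 ranged from 0.065 to 0.20, and it passed without C CM replicate 1. The causes were not tested. Flvcr2, at 22 reads in all, is limited by depth.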
